A study of Mus musculus with 6 samples.

Results

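The cell cycle and proliferation genes are 40 genes of the mouse, taken by symbol from a fixed list of cyclins, cyclin-dependent kinases, replication factors and mitotic genes, out of 24421 genes in the count table. All 40 had a row, and all 40 were among the 12945 genes with enough counts to be tested. They were ordered by their roles: 10 genes of G1 entry, 10 of DNA replication, and 20 that act from G2 to the end of mitosis (9 regulators of mitotic entry, 5 of the spindle checkpoint and mitotic exit, and 6 of chromosome and spindle structure). RNA came from the livers of male mice of the C57BL/6 strain, all 4 months old. Of the 6 libraries 3 came from mice that lacked Sesn3 (KO) and 3 from wild-type mice (WT). Both genotypes had been fed for 4 weeks on the same diet, with 20% of energy from protein, 40% from fat and 40% from carbohydrate, and with added cholesterol (1.25%) and sodium cholate (0.5%), a bile salt. The labels say no more of the allele than that Sesn3 is knocked out, and they name no batch or litter. They do not tie each library to its own mouse in words, so the p-values reflect the spread among these libraries, which may be technical.

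The libraries held between 18882220 and 24098512 counts. Sesn3, which encodes a stress-inducible sestrin, had 16 to 18 counts in the KO libraries and 172 to 200 in the WT libraries (log2 fold change -3.84, SE 0.22, edgeR adjusted p = 0.00183). In the whole table edgeR called 435 genes higher in KO and 463 lower, and 7 hepatocyte markers were listed as a check of the tissue, of which the 6 with a row summed to between 85780 and 137900 CPM (reads per 1e+06 counted, scaled for library composition). Leaving out KO replicate 2 left 48 higher and 53 lower.

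Adult hepatocytes are mostly quiescent and enter the cell cycle again after injury or loss of tissue. D-type cyclins with Cdk4 or Cdk6, and then cyclin E with Cdk2, inactivate the retinoblastoma proteins and release E2F factors, which switch on genes of DNA replication. A second wave, driven by B-Myb, FoxM1 and the MuvB complex, switches on the genes of G2 and mitosis, and the DREAM complex represses both waves in resting cells. Promoters of the second wave often carry a cell cycle homology region near the start of transcription together with CCAAT boxes, which bind NF-Y, while promoters of the first wave often carry E2F sites.

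Promoter sequences are shown because the values below are ordered by the 2 waves. RefSeq (GRCm38.p6) gave a promoter window for 30 of the 40 genes, and the 250 bases before the annotated start were searched on both strands. The letters searched were TTTGAA and TTCGAA for the cell cycle homology region, CCAAT for the CCAAT box, and TTTGGCGC, TTTCCCGC, TTTCGCGC, TTTGCGCG and TTCCCGCC for E2F-like sites. TTCGAA reads the same on both strands, and some E2F-like matches overlap each other. Of the 15 G2 and mitosis genes with a window, 14 held CCAAT and 8 held a cell cycle homology region with it, while 1 held an E2F-like site. Of the 9 replication genes with a window, 8 held CCAAT, 2 held both and 4 held an E2F-like site. Over all 32851 RefSeq windows of the same length 33.8% held CCAAT, 17.1% a cell cycle homology region, 6.02% both and 3.16% an E2F-like site. The windows below are examples and do not stand for all genes of the 2 waves. Left out are, for example, Ccnb1, whose window held CCAAT but no cell cycle homology region, and Tyms, whose window held none of the letters. Of the windows shown, Cdc20 is the one G2 and mitosis gene that passed the test. The other 5 shown were chosen after their values and matches were seen. Bases in capitals are the matches, on either strand, and each sequence runs 5′ to 3′ towards the start of its gene. Cdc20 (chr4:118437344-118437593, minus strand), Ccnb2 (chr9:70421555-70421804, minus strand), Cdk1 (chr10:69352913-69353162, minus strand) and Kif11 (chr19:37376132-37376381, plus strand) act in G2 and mitosis. Mcm5 (chr8:75109259-75109508, plus strand) and Mcm6 (chr1:128359706-128359955, minus strand) act in replication.
Cdc20: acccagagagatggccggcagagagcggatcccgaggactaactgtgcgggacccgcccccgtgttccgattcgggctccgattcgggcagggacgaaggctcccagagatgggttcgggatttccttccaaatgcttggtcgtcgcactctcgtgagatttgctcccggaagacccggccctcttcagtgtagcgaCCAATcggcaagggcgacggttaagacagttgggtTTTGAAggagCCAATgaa
Ccnb2: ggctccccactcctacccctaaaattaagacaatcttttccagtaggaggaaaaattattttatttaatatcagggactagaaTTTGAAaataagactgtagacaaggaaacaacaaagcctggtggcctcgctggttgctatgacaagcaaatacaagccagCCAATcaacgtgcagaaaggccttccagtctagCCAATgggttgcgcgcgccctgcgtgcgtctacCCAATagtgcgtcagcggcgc
Cdk1: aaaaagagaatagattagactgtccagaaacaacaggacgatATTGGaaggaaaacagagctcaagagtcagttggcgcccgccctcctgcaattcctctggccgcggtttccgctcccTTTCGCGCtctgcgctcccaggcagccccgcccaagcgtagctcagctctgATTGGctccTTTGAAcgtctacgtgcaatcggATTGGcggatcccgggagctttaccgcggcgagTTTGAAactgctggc
Kif11: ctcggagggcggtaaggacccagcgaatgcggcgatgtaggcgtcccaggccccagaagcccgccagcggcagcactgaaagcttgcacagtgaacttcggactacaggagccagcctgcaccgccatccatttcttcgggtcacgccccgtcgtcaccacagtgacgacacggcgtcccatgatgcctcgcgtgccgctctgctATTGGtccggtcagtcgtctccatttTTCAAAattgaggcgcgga
Mcm5: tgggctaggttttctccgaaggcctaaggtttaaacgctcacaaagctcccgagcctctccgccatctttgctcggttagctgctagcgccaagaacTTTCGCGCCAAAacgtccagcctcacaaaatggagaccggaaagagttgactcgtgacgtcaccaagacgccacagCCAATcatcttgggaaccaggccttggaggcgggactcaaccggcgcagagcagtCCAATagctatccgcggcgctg
Mcm6: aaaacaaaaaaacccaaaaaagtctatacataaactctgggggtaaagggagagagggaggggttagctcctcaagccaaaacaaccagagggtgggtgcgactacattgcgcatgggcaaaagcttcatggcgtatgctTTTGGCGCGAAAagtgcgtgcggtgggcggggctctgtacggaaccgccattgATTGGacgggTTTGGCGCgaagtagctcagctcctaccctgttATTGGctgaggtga

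Positions are counted back from the RefSeq start. In GENCODE M21 an exon of the same gene covers the last 9 bases of the Cdc20 window and the last 26 of the Cdk1 window. By that annotation the Cdc20 match at 4 to 8 bases and the Cdk1 match at 10 to 15 bases, given below, lie within the transcript. In Cdc20 the TTTGAA lay 13 to 18 bases before the start, between a CCAAT at 49 to 53 bases and another at 4 to 8 bases. Cdk1 held TTTGAA at 10 to 15 and at 66 to 71 bases, and it alone among the 15 G2 and mitosis windows also held an E2F-like site, at 124 to 131 bases. Kif11 held the reverse complement of TTTGAA at 14 to 19 bases. The TTTGAA of Ccnb2 lay farther away, at 162 to 167 bases, behind 3 CCAAT boxes. Mcm5 and Mcm6 each held CCAAT boxes and E2F-like sites but neither form of the cell cycle homology region. These are matches of letters, and binding was not measured.

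The comparison of KO with WT asks which transcripts of the liver differ between the genotypes on this diet. Among the 40 genes Ccnd1, which encodes cyclin D1, and Cdc20, the activator of the anaphase-promoting complex, rose in KO, and none fell. The 20 genes of G2 and mitosis had positive log2 fold changes, and those of the 10 replication genes lay between -0.06 and 0.49. The 2 genes that rose stand against a background of 3.36% of all tested genes called higher and 3.58% called lower (edgeR, Benjamini-Hochberg adjusted p under 0.05). A further tool, DESeq2, called 9 of the 40 higher and 1 lower, against a background of 6.46% and 7.29%. The median log2 fold change of the 40 genes was 0.49 and that of all tested genes 0.003, and 34 of the 40 were positive, as were 50.3% of all genes. KO lay above WT without overlap in 17 of the 40, against 16.9% of all tested genes, and below WT in 1, against 16.6%. An unadjusted p under 0.05 was reached by 14 genes with a higher level in KO and by 1 with a lower level, where 12.5% and 13.3% of all genes reached it. Whole liver was sequenced, so more dividing cells and more of these RNAs per cell cannot be told apart, and neither can hepatocytes and other cells as the source.

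How many of the 40 genes were called depended on the libraries. Ccnd1 and Cdc20 were called, and no other, with RLE factors (background 3.31%), upper-quartile factors (3.75%), library size only (5.46%), a filter of 1 CPM in 3 libraries (3.59%) and no robust dispersion (3.48%). limma-voom called Ccnd1 alone (3.28%), and without a filter on low counts none was called (2.94%). Leaving out any KO library left none, as the background too fell to 1.1% (replicate 1), 0.367% (replicate 2) and 0.99% (replicate 3), and so did leaving out WT replicate 3 (1%). Without WT replicate 1 edgeR called 4 (Ccnb2, Ccnd1, Cdc20 and Foxm1; background 3.84%), and without WT replicate 2 it called 5 (Ccnb1, Ccnb2, Ccnd1, Cdc20 and Myc; 3.07%). The median log2 fold change of the 40 genes was 0.93 with 37 positive without WT replicate 1, and 0.40 with 27 positive without WT replicate 2.

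**Figure D1:**
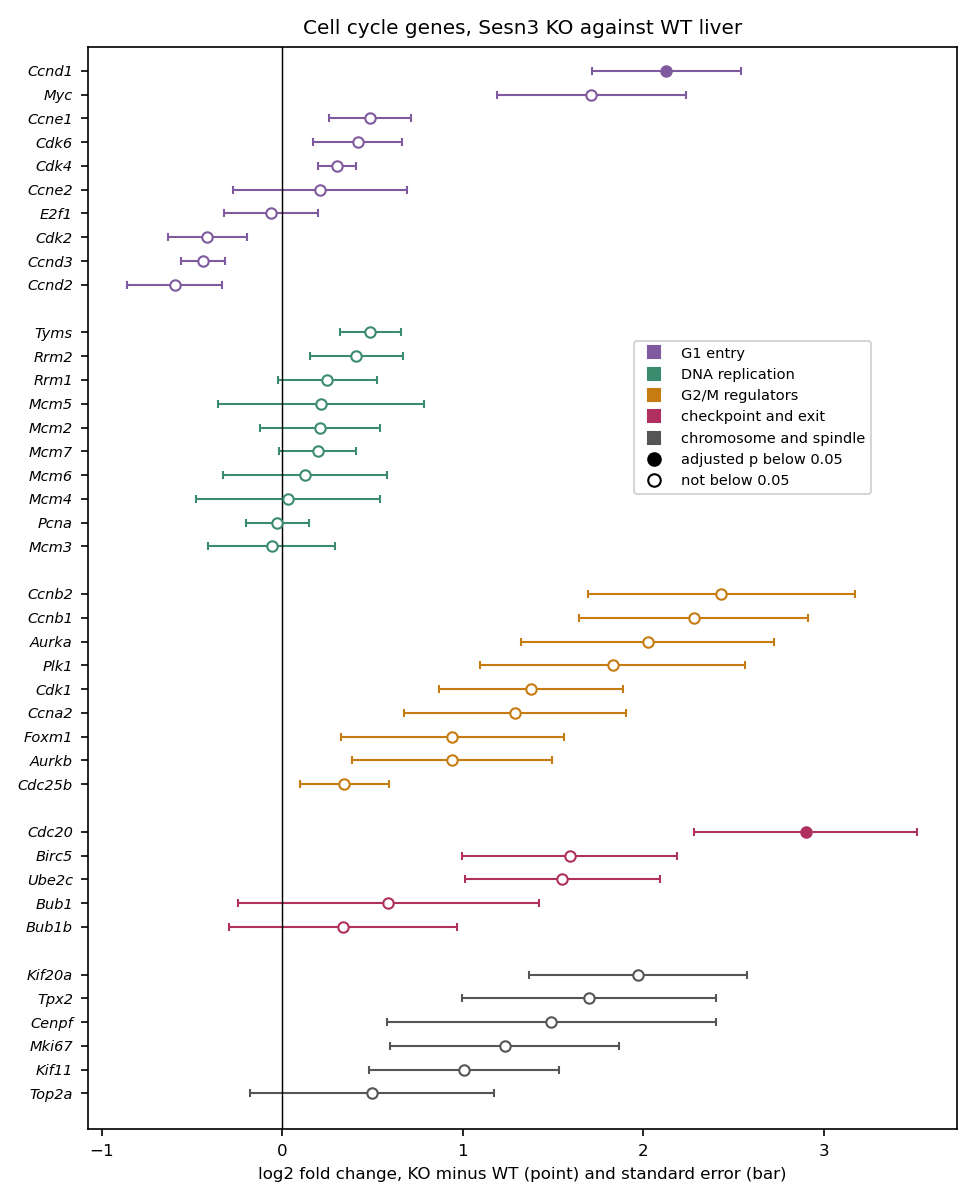
Log2 fold change of each of the 40 genes, KO minus WT (x axis; points with approximate standard errors), grouped and coloured by role, with filled points for the genes whose adjusted p was under 0.05. Ccnd1 and Cdc20 are filled, the 20 genes of G2 and mitosis all lie right of 0, and the 10 replication genes lie between -0.06 and 0.49.

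Among the genes of G1 entry Ccnd1 alone passed the test. Ccnd1, the partner of Cdk4 and Cdk6 that links growth signals to retinoblastoma phosphorylation, stood at 151, 164 and 283 CPM in KO replicates 1 to 3 and at 68.5, 24.1 and 44.2 CPM in WT replicates 1 to 3. Every KO library was above every WT library, and the lowest KO level was more than double the highest WT level. The means were 199 ± 72.7 and 45.6 ± 22.2 CPM (SD, n = 3 each), a 4.37-fold rise (log2 fold change 2.13, SE 0.41, edgeR adjusted p = 0.0314). Ccnd1 spans 144929931 to 144939925 on chromosome 7 (mm10, GENCODE M21), and 23.4% of its exon length is shared with exons of Oraov1 on the other strand. Oraov1 stood at 5.61 ± 0.614 CPM in KO and 6.27 ± 1.52 CPM in WT (SD, n = 3 each). In the fits where Ccnd1 was not called, the edgeR adjusted p of Ccnd1 ran from 0.0520, with no filter on low counts, to 0.105, with WT replicate 3 left out.

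The sister cyclins had negative differences. Ccnd3, which encodes cyclin D3, stood at 29.2, 36.5 and 35.8 CPM in KO and at 47.0, 47.8 and 42.7 CPM in WT. All 3 KO libraries lay under all 3 WT libraries, and Ccnd3 is the one gene of the 40 with that pattern. Its log2 fold change was -0.44 (SE 0.12, edgeR adjusted p = 0.0762), which missed the threshold, while DESeq2 called it lower (adjusted p = 0.0469). Ccnd2, which encodes cyclin D2, stood at 13.4, 12.0 and 7.07 CPM in KO and at 18.8, 12.7 and 17.5 CPM in WT, and the groups overlapped (log2 fold change -0.60, SE 0.26, edgeR adjusted p = 0.208). Scaled by exon length, the mean level was 42.4 CPM per kilobase for Ccnd1, 3.85 for Ccnd3 and 1.15 for Ccnd2 in KO, and 9.69, 5.22 and 1.74 in WT. Ccnd1 thus made up 87.1%, 86.5% and 92.6% of the length-scaled counts of the 3 D cyclin genes in KO replicates 1 to 3. In WT replicates 1 to 3 it made up 66.4%, 43.0% and 58.3%. That share does not depend on the scaling between libraries, and its groups did not overlap. Its size does depend on the lengths used, which join all annotated exons of a gene rather than those of 1 transcript. These lengths were 4709 bases for Ccnd1, 8775 for Ccnd3 and 9409 for Ccnd2. Protein was not measured.

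The kinases and the later G1 cyclins did not pass. Cdk4, the main kinase partner of the D cyclins, stood at 58.4, 56.1 and 53.3 CPM in KO and at 46.3, 41.3 and 48.4 CPM in WT, without overlap, at a log2 fold change of 0.30 (SE 0.11, edgeR adjusted p = 0.129). Of its exon length 19.7% is shared with Tspan31 on the other strand, which stood at 311 ± 33.1 and 313 ± 40.8 CPM (SD, n = 3 each). Ccne1, which encodes cyclin E1, stood at 3.93, 4.05 and 4.48 CPM in KO and 3.09, 2.5 and 3.31 CPM in WT (log2 fold change 0.48, SE 0.23, edgeR adjusted p = 0.227). Cdk6 had a log2 fold change of 0.42, Ccne2 of 0.21, Cdk2 of -0.415 and the transcription factor gene E2f1 of -0.06, and in these 4 the groups overlapped. Ccne2 shares 17.4% of its exon length with Ints8 on the other strand.

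Myc, which encodes a growth-driving transcription factor, stood at 40.0, 38.0 and 28.4 CPM in KO and at 9.84, 3.43 and 19.2 CPM in WT. The lowest KO library was above the highest WT library, and the WT libraries differed more among themselves than the KO libraries did. The log2 fold change of 1.71 (SE 0.52) missed the threshold (edgeR adjusted p = 0.0961). Without WT replicate 2, the lowest library, it was 1.29 and passed (edgeR adjusted p = 0.0443), and DESeq2 called it higher (adjusted p = 0.00745).

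**Figure D2:**
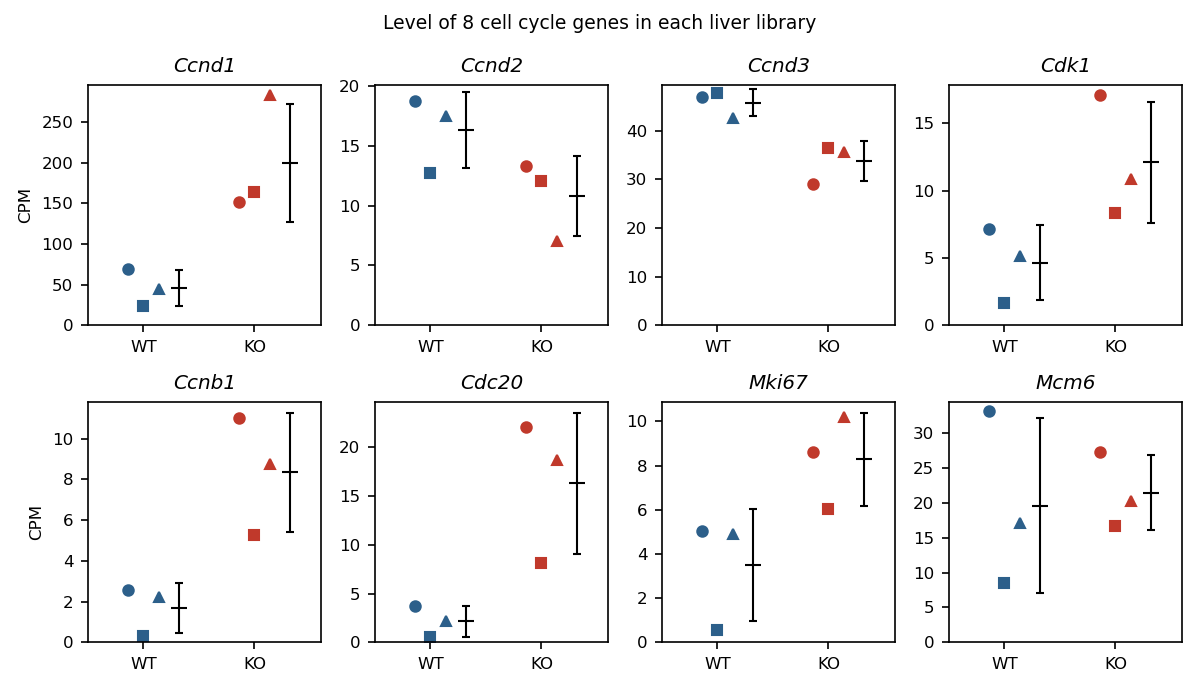
CPM of 8 of the genes (y axes, each from 0) in every WT library (blue) and KO library (red), with circles, squares and triangles for replicates 1, 2 and 3 and black bars for the mean and SD (n = 3). Ccnd1, Cdk1, Ccnb1, Cdc20 and Mki67 were higher in each KO library than in any WT library, Ccnd3 was lower in each, and Ccnd2 and Mcm6 overlapped.

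No gene of DNA replication passed the test. Of these 10 genes 1 had an unadjusted p under 0.05 with a higher level in KO, where 12.5% of all tested genes had one. Neither DESeq2 nor limma-voom called any. The 6 Mcm genes encode the ring of the replicative helicase, and their log2 fold changes ran from -0.06 (Mcm3) to 0.22 (Mcm5), with standard errors of 0.21 to 0.57. Mcm6 stood at 27.2, 16.7 and 20.3 CPM in KO and at 33.1, 8.49 and 17.1 CPM in WT. The WT libraries held both the highest and the lowest level, and the KO libraries lay between them. Mcm5 had the same arrangement of libraries, at 19.8, 11.04 and 12.4 CPM in KO and 20.2, 3.25 and 13.7 CPM in WT. Pcna, the sliding clamp of the replication fork, was at 34.9 ± 6.41 CPM in KO and 35.5 ± 6.08 CPM in WT (SD, n = 3 each), a difference of -0.03 on the log2 scale (SE 0.18, edgeR adjusted p = 0.940).

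The enzymes of nucleotide supply lay a little higher. Tyms, the thymidylate synthase gene, stood at 12.2, 8.95 and 10.5 CPM in KO and at 7.54, 7.27 and 7.74 CPM in WT (log2 fold change 0.49, SE 0.17, edgeR adjusted p = 0.126). It alone among the 10 had no overlap between the groups, where KO lay above WT without overlap in 16.9% of all tested genes. Rrm1 and Rrm2 encode the subunits of ribonucleotide reductase, and their log2 fold changes were 0.25 (SE 0.28) and 0.41 (SE 0.26). The median of the 10 genes was 0.20, and 8 were positive. Without WT replicate 2 the median was -0.10 and 4 were positive, and without KO replicate 1 it was -0.03 with 5 positive. Without WT replicate 1 it was 0.50, and all 10 were positive. With library size as the only scaling all 10 were positive, at a median of 0.41, and that scaling moved the median of all genes by 0.21.

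The 20 genes of G2 and mitosis were all positive, with a median log2 fold change of 1.43 and a range from 0.34 to 2.90. One of them, Cdc20, passed the test, and 10 had an unadjusted p under 0.05 (12.5% of all tested genes had one with a higher level in KO). In 12 of them KO lay above WT without overlap, against 16.9% of all tested genes. DESeq2 called 7 of the 20 (6.46% of all genes were called higher) and limma-voom none (3.28%). Without WT replicate 2 the median was 0.95 and 18 were positive, and in the other 5 fits without 1 library all 20 were positive. Such a list of correlated genes is not 20 separate observations.

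Cdc20 stood at 22.1, 8.18 and 18.7 CPM in KO and at 3.72, 0.581 and 2.19 CPM in WT. The lowest KO library held more than double the highest WT library. The means were 16.3 ± 7.24 and 2.16 ± 1.57 CPM (SD, n = 3 each), a 7.46-fold rise (log2 fold change 2.90, SE 0.62, edgeR adjusted p = 0.0401). Its counts were 522, 212 and 433 in KO and 71, 10 and 41 in WT. Cdc20 lies on chromosome 4 from 118432901 to 118437352 and shares 2.84% of its exon length with Elovl1 on the other strand, which stood at 74.3 ± 4.87 CPM in KO and 59.7 ± 7.93 CPM in WT (SD, n = 3 each) and whose part in the counts of Cdc20 was not tested. The adjusted p of Cdc20 was 0.0590 with limma-voom, 0.0686 with no filter on low counts, and at most 0.128 in the edgeR fits that lacked a KO library or WT replicate 3.

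The other genes of the checkpoint and of mitotic exit split in their values. Ube2c, the ubiquitin-conjugating enzyme that works with the anaphase-promoting complex, stood at 14.8, 5.79 and 9.44 CPM in KO and at 4.81, 1.16 and 4.22 CPM in WT (log2 fold change 1.55, SE 0.54, edgeR adjusted p = 0.129). Of its exon length 22.8% is shared with Tnnc2 on the other strand, which had 1 count over the 6 libraries. Birc5, which encodes survivin of the chromosomal passenger complex, had a log2 fold change of 1.59 (SE 0.60, edgeR adjusted p = 0.151), again without overlap. DESeq2 called both Ube2c (adjusted p = 0.0285) and Birc5 (0.0440). The checkpoint kinase genes Bub1 and Bub1b overlapped between the groups, with log2 fold changes of 0.59 (SE 0.83) and 0.34 (SE 0.63). Bub1b was negative, at -0.115, without WT replicate 2.

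Regulators of mitotic entry included the B cyclins. Ccnb1 stood at 11.03, 5.25 and 8.75 CPM in KO and at 2.56, 0.291 and 2.24 CPM in WT, where WT replicate 2 had 5 counts. The KO libraries were all above the WT libraries (log2 fold change 2.28, SE 0.63, edgeR adjusted p = 0.0764). Ccnb2 stood at 14.8, 9.99 and 20.2 CPM in KO and at 5.39, 0.291 and 2.56 CPM in WT (log2 fold change 2.43, SE 0.74, edgeR adjusted p = 0.0941). With all 6 libraries neither passed with edgeR, while DESeq2 called Ccnb1 (adjusted p = 0.00314) but not Ccnb2 (0.0872). Without WT replicate 2 Ccnb1 passed at a log2 of 1.79 (edgeR adjusted p = 0.0263) and Ccnb2 at 1.91 (0.0353), and Ccnb2 also passed without WT replicate 1 at 3.37 (0.0446).

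Cdk1, the kinase that the B cyclins activate, stood at 17.1, 8.34 and 10.9 CPM in KO and at 7.17, 1.63 and 5.13 CPM in WT (log2 fold change 1.38, SE 0.51, edgeR adjusted p = 0.147). Ccna2, which encodes cyclin A2 of S and G2 phase, had a log2 fold change of 1.29 (SE 0.61), and the mitotic kinase genes Aurka and Plk1 of 2.02 (SE 0.70) and 1.83 (SE 0.73). None of these 4 overlapped between the groups, and none passed with edgeR. For Ccna2 the groups nearly touched, at 7.332 CPM in KO replicate 2 and 7.326 CPM in WT replicate 1. Ccna2 shares 12.5% of its exon length with Exosc9 on the other strand. Exosc9 stood at 13.9 ± 1.56 CPM in KO and 11.1 ± 2.22 CPM in WT (SD, n = 3 each). DESeq2 called Cdk1 (adjusted p = 0.0452) and Aurka (0.0248). The kinase gene Aurkb and the phosphatase gene Cdc25b overlapped between the groups, at log2 fold changes of 0.94 (SE 0.55) and 0.34 (SE 0.25).

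Foxm1, a transcription factor of the second wave, stood at 6.13, 4.01 and 4.74 CPM in KO and at 5.29, 0.756 and 1.66 CPM in WT. WT replicate 1 lay within the KO range, and the log2 fold change of 0.94 (SE 0.62) did not pass (edgeR adjusted p = 0.383). Without WT replicate 1 it was 2.03 and passed (edgeR adjusted p = 0.0370).

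Among genes of chromosome and spindle structure, Kif20a, a kinesin of cytokinesis, stood at 14.3, 7.14 and 16.3 CPM in KO and at 4.97, 0.756 and 3.85 CPM in WT (log2 fold change 1.97, SE 0.60, edgeR adjusted p = 0.0962). It shares 29.3% of its exon length with Cdc23 on the other strand, which stood at 9.94 ± 0.470 and 10.1 ± 1.30 CPM (SD, n = 3 each). DESeq2 called Kif20a (adjusted p = 0.00809). Mki67, which encodes the proliferation marker Ki-67, stood at 8.62, 6.02 and 10.2 CPM in KO and at 5.02, 0.581 and 4.91 CPM in WT, without overlap (log2 fold change 1.23, SE 0.64, edgeR adjusted p = 0.272). Tpx2, a spindle assembly factor, also had no overlap, at a log2 of 1.70 (SE 0.70). The groups overlapped in Kif11, the spindle motor Eg5 (1.00, SE 0.53), in Cenpf, a kinetochore protein gene (1.49, SE 0.91), and in Top2a, the mitotic topoisomerase (0.50, SE 0.68). Cenpf had no count in WT replicate 2, and Top2a was at a log2 of -0.001 without that library.

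The WT libraries spread widely in these genes. WT replicate 2 held the lowest WT level in 37 of the 40 genes and in all 20 of G2 and mitosis, and WT replicate 1 held the highest WT level in 34 of 40 and in all 20. Among the KO libraries, replicate 1 was the highest in 32 of 40 and replicate 2 the lowest in 29 of 40. Over the 40 genes the median SD of log2(CPM + 0.5) was 0.94 within WT and 0.42 within KO, against 0.225 and 0.18 over all tested genes.

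**Figure D3:**
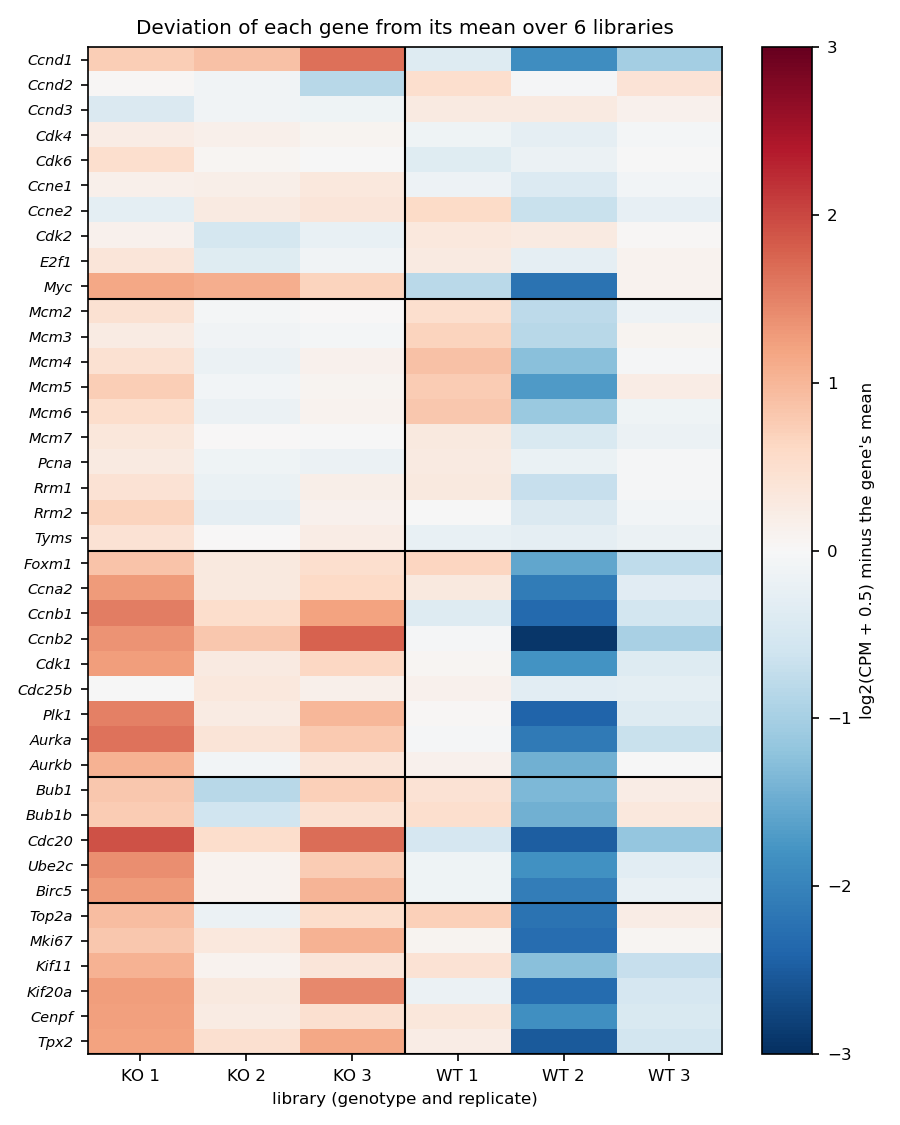
Each of the 40 genes (rows, grouped by role between black lines: G1 entry, replication, regulators, checkpoint and exit, chromosome and spindle) in each library (columns, KO left and WT right of the black line), coloured by log2(CPM + 0.5) minus the gene's mean over the 6 libraries. WT replicate 2 is blue from Foxm1 down and Ccnd3 runs opposite to Ccnd1.

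Levels were also summed by library. The 20 G2 and mitosis genes added up to 214.5, 104.5 and 176 CPM in KO replicates 1 to 3 and to 97.6, 15.9 and 67.0 CPM in WT replicates 1 to 3. The groups did not overlap, but KO replicate 2 and WT replicate 1 lay close together. The 10 replication genes added up to 219, 148 and 165 CPM in KO and 221, 103 and 156 CPM in WT, and the ranges overlapped. The ratio of G2 and mitosis counts to replication counts within a library was 0.981, 0.705 and 1.07 in KO and 0.442, 0.155 and 0.4305 in WT. No p-value is given for these sums, since the genes were listed with earlier results of these data known.

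**Figure D4:**
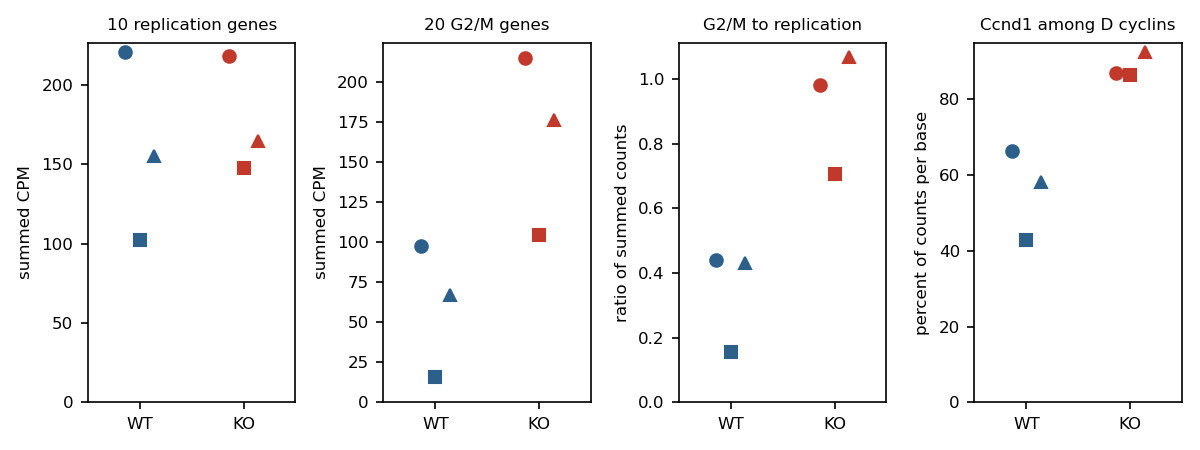
Summed CPM of the 10 replication genes and of the 20 G2 and mitosis genes, the ratio of their counts within each library, and the percent of length-scaled D cyclin counts from Ccnd1 (y axes, all from 0), for WT (blue) and KO (red), with circles, squares and triangles for replicates 1, 2 and 3. The replication sums overlap, while the other 3 measures are higher in each KO library than in any WT library.

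Other genes of the cycle, from lists set by function, were read beside the 40. Of 8 listed inhibitors of cyclin-dependent kinases 2 rose and none fell, where 3.36% of all tested genes were called higher and 3.58% lower. Cdkn1a, which encodes p21, stood at 54.0, 42.7 and 51.1 CPM in KO and at 15.7, 2.79 and 8.22 CPM in WT (log2 fold change 2.46, SE 0.52, edgeR adjusted p = 0.0393). Cdkn3 encodes a phosphatase of cyclin-dependent kinases that is itself made in dividing cells, and it stood at 6.68, 2.97 and 7.71 CPM in KO and 0.889, 0 and 0.374 CPM in WT (log2 fold change 3.73, SE 0.81, edgeR adjusted p = 0.0416). In both genes every KO library was above every WT library. The others did not pass: Cdkn1b, which encodes p27, had a log2 fold change of 0.35, Cdkn1c 0.96, Cdkn2a -0.60, Cdkn2b 0.64, Cdkn2c 0.60 and Cdkn2d -0.04. Neither Cdkn1a nor Cdkn3 passed when a KO library or WT replicate 3 was left out (largest adjusted p 0.124 and 0.132). The same held for Cdkn1a with no filter on low counts and for Cdkn3 with limma-voom.

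In a longer list of mitotic genes 52 of 59 tested were positive, at a median of 1.05, where 50.3% of all genes were positive. The median was 1.58 without WT replicate 1, and 0.72 with 48 of 60 positive without WT replicate 2. By edgeR 3 of the 59 rose and none fell, a number to be read against 3.36% of all genes called higher. They were Nek2, a centrosome kinase gene (log2 fold change 1.75, SE 0.32, edgeR adjusted p = 0.0249), Cdca3, a mitotic entry factor gene (2.505, SE 0.53, adjusted p = 0.0400), and the phosphatase gene Cdc25a (1.04, SE 0.23, adjusted p = 0.0400). All 3 failed to pass when KO replicate 1, KO replicate 3 or WT replicate 3 was left out, and Nek2 alone passed without KO replicate 2. Cdc25a also did not pass without WT replicate 1 or 2, nor did Nek2 and Cdca3 with limma-voom or Cdca3 with no filter. DESeq2 called 13 of 60 higher and 1 lower, against 6.46% and 7.29% of all genes. In a longer list of replication genes 22 of 45 tested were positive, at a median of -0.01, none rose and Rpa3, a subunit gene of the single-strand binding protein, fell (log2 fold change -1.03, SE 0.23, edgeR adjusted p = 0.0444). In that list 2 genes had an unadjusted p under 0.05 with a higher level in KO and 4 with a lower level. Of all genes 12.5% and 13.3% had one. DESeq2 called 1 of 47 higher and 2 lower, against 6.46% and 7.29% of all genes. In the limma-voom fit none was higher and 1 was lower, against 424 and 443 of all 12945 genes. Cdt1, a licensing factor gene named after its value was seen, stood at 12.5 ± 1.14 CPM in KO and 7.42 ± 1.32 CPM in WT (SD, n = 3 each), just outside the threshold (log2 fold change 0.75, SE 0.18, edgeR adjusted p = 0.0502). Mcm10, also named after its value was seen, had the most negative log2 fold change of that list (-1.975, SE 0.56, edgeR adjusted p = 0.0796). It stood at 12.0, 24.0 and 21.9 CPM in KO and at 23.5, 113 and 91.2 CPM in WT, and the groups overlapped. A single gene of that list was called higher with upper-quartile factors, library size only, no filter, 1 CPM in 3 libraries, no robust dispersion and without WT replicate 1. Leaving out any library ended the call of Rpa3 (largest adjusted p 0.170), as did library size only and no filter.

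Of 18 genes of the retinoblastoma, E2F and DREAM complexes 9 were positive and 9 negative, at a median of 0.02, none rose, and Rbbp4, a histone-binding subunit gene, fell (log2 fold change -0.65, SE 0.15, edgeR adjusted p = 0.0482). Rbbp4 passed without WT replicate 1 but not without any other library (largest adjusted p 0.175), nor with upper-quartile factors or library size only. In the Myc network 5 of 10 were positive, none rose, and Mycn fell from 1.58 ± 0.108 to 0.345 ± 0.179 CPM (SD, n = 3 each), which is -2.18 as a log2 fold change (SE 0.45, edgeR adjusted p = 0.0337). Mycn passed without WT replicate 2, and it did not pass when any other library was left out or with library size only. In each of these 2 lists 1 gene had an unadjusted p under 0.05 with a higher level in KO (12.5% of all genes). With a lower level 2 of the 18 and 1 of the 10 had one (13.3% of all genes). DESeq2 and limma-voom each called none higher and 1 lower in each list. Of all genes DESeq2 called 6.46% higher and 7.29% lower. The limma-voom fit called 424 higher and 443 lower of 12945. With library size only 15 of the 18 and 8 of the 10 were positive, and 1 of the 18 was called higher.

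Some markers of other liver cells also passed the test, where edgeR called 3.36% of all tested genes higher and 3.58% lower. The share of all genes called higher was 6.46% with DESeq2. With edgeR it was 3.84% without WT replicate 1, 3.07% without WT replicate 2 and 0.99% without KO replicate 3. Of 8 macrophage markers 1 rose (Trem2) and 7 were positive, and their sum ran from 1272 to 1409 CPM in KO and from 386 to 1347 in WT, lowest in WT replicate 2. DESeq2 called 4 of the 8, as did edgeR without WT replicate 1, and without WT replicate 2 edgeR called 2. Of 5 Kupffer cell markers 2 rose (Clec4f and Vsig4) and 3 were positive. Timd4 and Marco were negative (log2 fold changes -0.52 and -0.07), and both overlapped between the groups. The sums of the 5 ran from 1394 to 1804 CPM in KO and from 652 to 1259 in WT. Without WT replicate 2 edgeR called 1 of the 5. No macrophage or Kupffer marker was called by edgeR when a KO library or WT replicate 3 was left out. Of 7 stellate cell markers 2 rose (Col1a1 and Col3a1), with sums of 570.0 to 783 and 159.6 to 269.5 CPM. No stellate marker was called without KO replicate 1, KO replicate 2 or WT replicate 3 or with no filter, and 1 was called without KO replicate 3, while DESeq2 called 4. None of 7 T and NK cell markers passed, with sums of 6.71 to 8.62 CPM in KO and 5.755 to 27.1 in WT, highest in WT replicate 1. All 7 were negative, at a median of -0.79, but without WT replicate 1 the median was 0.06 and 4 were positive. By edgeR none of 5 B cell markers (sums of 13.1 to 29.99 and 8.37 to 13.2 CPM), 5 cholangiocyte markers (97.5 to 114 and 53.8 to 98.01 CPM), 5 endothelial markers (134 to 266 and 216 to 265.5 CPM) or 3 tested neutrophil markers (6.38 to 12.05 and 4.185 to 19.7 CPM) passed. Of 3 tested erythroid markers Alas2, the heme synthesis enzyme gene of red cells, fell, a call lost when any KO library was left out, with sums over 5 listed markers of 33.4 to 49.5 CPM in KO and 113 to 261 in WT, and the globin genes Hbb-bs and Hba-a1 had no counts. No marker of the other lists was at 0 in all libraries, and the part of these cells in the mitotic genes was not tested.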

How the data were processed

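The deposited table holds raw read counts for each gene symbol, as whole numbers that the authors did not normalize. It was made with STAR 2.5, Subread 1.5.3 (featureCounts) and edgeR 3.20.8 on mm10, per the submitters' processing notes, which give no order of steps. No source used here gives the annotation, the strand setting or how reads with several matches were counted. Antisense partners, and the pseudogenes that GENCODE M21 names for Ccnd3, Pcna, Tyms, Ccnb1 and Ccnb2, could therefore take or give reads. Groups follow the genotype label, and replicate numbers are only names in accession order.

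The test was edgeR's two-sided quasi-likelihood F-test (version 4.0.16, R 4.3.3) with robust glmQLFit and TMM factors, on genes kept by filterByExpr with a minimum count of 10 and a minimum total of 15. P-values were adjusted by Benjamini-Hochberg over 12945 genes, with a threshold of 0.05. Standard errors are approximate (log2 fold change over the root of F). For 1 gene alone the smallest two-sided exact permutation p in this design is 0.1. In data simulated for this comparison, with 50 of 12945 genes changed at each size, edgeR recovered 6% of 1.5-fold changes, 52% of 2-fold, 86% of 4-fold and 92% of 8-fold ones, with 9.2% false among its calls. For DESeq2 the shares were 14%, 70%, 94% and 94%, with 24% false. These shares describe all tested genes and were not worked out for the 40 genes alone. The 40 genes spread more, with a median SD on the log2 scale of 0.94 within WT and 0.42 within KO. Over all tested genes it was 0.225 and 0.18. Recovery among the 40 genes may therefore be lower than these shares. The 40 genes and the other lists were chosen with earlier results of these data known. Library values are given for genes that passed in the fit of all 6 libraries or without 1, for the smallest p in each of 5 roles, and for textbook genes, and further members were given them after their values were seen. The tests were repeated with upper-quartile or RLE factors, with library size only, without a filter, with a filter of 1 CPM in 3 libraries, without robust dispersion, with DESeq2 (1.42.0), with limma-voom (3.58.1), and without each library. Positions and exon lengths are those of GENCODE M21 (mm10), which matched 23334 of 24421 symbols (95.5%) to 1 gene.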

Additional observations from a re-analysis of the deposited data

How the results depend on the processing

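No paired analysis was possible because the labels give no replicate numbers that pair libraries. Of the 40 genes 2 were higher with all 6 libraries in edgeR, 0 with no low-count filter, 1 with limma-voom and 9 with DESeq2, and from 0 to 5 without 1 library. None was lower except 1 with DESeq2, Ccnd3. Over all genes 707 were higher and 258 lower with library size only, against 435 and 463, and 924 and 1043 with DESeq2. Without 1 library the higher genes ran from 48 to 504 and the lower from 53 to 475.

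Some genes changed sign, among them Bub1b and Top2a, which were at 0.34 and 0.50 with all 6 libraries. With library size only E2f1 was at 0.15, Pcna at 0.19 and Mcm3 at 0.14. Pcna was at 0.026 with upper-quartile factors and Mcm3 at 0.045 with limma-voom. Without 1 library the log2 fold change ran from -0.115 to 0.71 for Bub1b, -0.10 to 0.80 for Ccne2, -0.30 to 0.10 for E2f1, -0.064 to 0.62 for Mcm2, -0.37 to 0.365 for Mcm3, -0.37 to 0.71 for Mcm4, -0.24 to 0.76 for Mcm5, -0.235 to 0.74 for Mcm6, -0.18 to 0.12 for Pcna and -0.001 to 1.07 for Top2a. The cause was not tested. WT replicate 2 had 0 to 28 counts for each of the G2 and mitosis genes except Cdc25b (49), which limits the precision of that library's values.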
